A study of Mus musculus with 6 samples.

Results

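Homeobox transcription factors were followed in 2 mouse kidney cell lines, with the question of which HOX genes each line expressed and at what level. The members were chosen by gene symbol alone, as the rows of the deposited expression table whose symbol begins with Hoxa, Hoxb, Hoxc, Hoxd, Pbx (without Pbxip1), Meis, Irx, the letters of Six4 with any digit, Lhx, Emx, Msx, Dlx, Pitx, Cux, Satb, Zfhx, Pknox or Tshz. This gave 65 of the 12803 rows, of which 61 were protein-coding genes (30 HOX genes and 31 of the other families) and 4 were noncoding RNAs that carry the name of a neighbouring homeobox gene (Emx2os, Hoxb3os, Hoxb5os and Hoxd3os1). Messenger RNA was sequenced in 3 libraries of a podocyte-derived line with the genotype Myosin 1e KO (KO below) and in 3 libraries of the WT murine podocyte line named Mundel (WT below). Podocytes form the outer layer of the kidney filter around glomerular capillaries, and Myosin 1e is an actin-based motor protein of these cells. The labels give kidney as the tissue of both lines and give no age, sex, passage, culture temperature or treatment. A Myosin 1e heterozygous genotype, which the design text names, was not analysed here. Each genotype stood as 1 line, so the loss of Myosin 1e and any other difference between the lines cannot be told apart. The replicates are called biological in the design text, which does not say what was repeated, and p-values reflect only the variation among these libraries.

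HOX genes lie in clusters A to D on different chromosomes, and genes at the same place in different clusters form a paralog group. In the embryo, low-numbered groups are switched on early and toward the head and high-numbered groups late and toward the tail, so the set of HOX genes a cell keeps on is often read as a record of its position of origin. HOX proteins bind DNA together with PBX and MEIS or PKNOX proteins, which belong to another homeodomain class. In the developing kidney, Hoxb7 is best known from the ureteric bud, where its regulatory sequence drives widely used transgenes, Emx2 and Lhx1 are required for kidney formation, and Irx1 to Irx3 take part in patterning of the nephron.

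Reads in listed genes numbered 35447096 to 42106461 per library, and 3 reads were worth 0.0703 to 0.0856 CPM (counts-per-million of an effective library size close to these numbers). Myo1e was at 18.9, 16.3 and 16.8 CPM in the KO libraries and at 184, 180 and 168 CPM in the WT libraries. The groups did not overlap, and the exact two-sided permutation test gave p = 0.1, the smallest that 3 against 3 allows. Markers of kidney cell types also differed between the lines. Of 13 podocyte markers 8 were listed, with a summed level of 890 to 1136 CPM in KO and 1798 to 2038 CPM in WT, while Nphs1, Lmx1b, Ptpro and Tcf21 were not analysed here. The listed ones went both ways, with 2 higher in KO (Podxl at 106 against 50.4 CPM and Cd2ap at 390 against 275 CPM). A further 5 were lower in KO, among them Synpo (209 against 681 CPM) and Mme (274 against 620 CPM), which carry most of the difference in the sum. The largest folds among the lower ones were those of Plce1 (1.37 against 226 CPM) and Wt1 (0.125 against 4.40 CPM). Of 10 markers of the collecting duct and ureteric epithelium 6 were listed, with sums of 4177 to 4719 CPM in KO and 113 to 117 CPM in WT, carried by the keratins Krt7, Krt8 and Krt18, while Gata3 was lower in KO (1.01 against 17.5 CPM) and Ret and Emx2 did not pass (adjusted p = 0.61 and 0.24). Of 8 markers of mesangium, stroma and fibroblasts 5 were listed, with sums of 3.13 to 4.17 CPM in KO and 237 to 287 CPM in WT. Proximal tubule markers (3 of 6 listed) summed to 14.1 to 24.1 CPM in KO and 620 to 1247 CPM in WT. Aqp1 and Lrp2 carried this difference (log2 fold changes -7.86 and -4.56). The other listed marker, Cubn, was at 3.41 against 3.48 CPM, with overlapping groups (-0.03, adjusted p = 0.92). Leukocyte markers (2 of 5 listed) summed to 56.2 to 75.5 CPM in KO and 37.1 to 56.9 CPM in WT. Among 5 endothelial markers 0 were listed. In bulk RNA, fewer cells of a type and less RNA per cell cannot be told apart, and the part of cell composition in the results on homeobox genes was not tested.

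All 65 rows were tested with limma in a fit over 12616 genes. Of these genes 68.1% passed at an adjusted p under 0.05, 34.3% as higher and 33.8% as lower in KO, so a call alone says little about a gene in this comparison. Among the members 52 of 65 (80%) passed, 21 as higher and 31 as lower in KO, and 13 did not pass. Of the 30 HOX coding genes 28 passed, 14 in each direction, and of the 31 other coding genes 23 passed, 6 as higher and 17 as lower. The median absolute log2 fold change was 1.11 among the members and 0.51 over all genes tested. At least 2-fold differences passed for 15 members upward and 21 downward, against 11.7% and 16.2% of all genes. The groups did not overlap for 53 members, against 73.5% of all genes. A row had to be above about 1 CPM in some libraries to be listed, and 8 members were under 1 CPM on average only in KO and 6 only in WT. These 14, among them Hoxb13, Hoxc11, Hoxd10, Hoxb5os, Msx1, Msx2, Dlx1, Dlx2, Lhx2, Satb1 and Zfhx4, had to differ to be listed at all. Their calls and adjusted p values, here and below, are thus no independent evidence of a difference. The same holds for other genes under 1 CPM in only 1 line, among them the markers Wt1, Krt8 and Krt18. Homeobox genes low in both lines were not analysed here. For this reason the counts describe the listed rows and not the families.

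**Figure D1:**
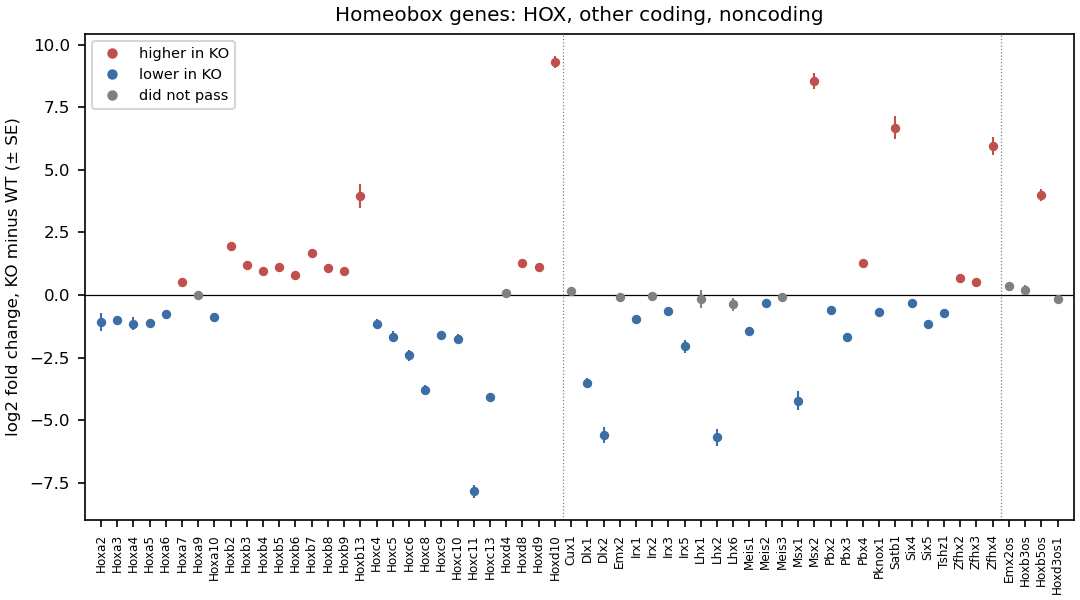
Log2 fold change of 60 of the 65 homeobox rows, KO minus WT, from the limma fit (points, with bars of 1 standard error on each side), for HOX genes by cluster and paralog group, other coding genes by name and noncoding RNAs last. Colour marks rows that passed as higher or lower in KO, and grey rows did not pass. The values run from -7.85 for Hoxc11 to 9.31 for Hoxd10, all 9 HoxB genes lie on the side higher in KO and all 8 HoxC genes on the side lower in KO.

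Both lines had a broad HOX code that reached up to paralog group 13 at a threshold of 1 CPM. In KO, group 13 was only just above this threshold, with Hoxb13 at a mean of 1.39 CPM and Hoxc13 at 1.57 CPM. In WT, Hoxc13 was at 27.0 CPM. With a HOX gene counted as on at 1 CPM or more in all 3 libraries of a line, 27 genes were on in KO and 28 in WT, and 25 of them in both. Hoxb13 and Hoxd10 were on in KO only, and Hoxa2, Hoxa4 and Hoxc11 in WT only. By cluster, KO had 7 HoxA, 9 HoxB, 7 HoxC and 4 HoxD genes on, and WT had 9, 8, 8 and 3. Of the 39 mouse HOX genes, Hoxa11, Hoxa13, Hoxb1, Hoxc12, Hoxd1, Hoxd3, Hoxd11, Hoxd12 and Hoxd13 had no row and were not analysed here. The sets on in only 1 line depended on the level required. At 0.5 CPM, 28 genes were on in each line, and Hoxa4 was on in both. At 5 CPM the counts were 19 in KO and 22 in WT, with Hoxd10 among those only in KO and Hoxa3, Hoxc4, Hoxc8, Hoxc11 and Hoxc13 only in WT. Hoxd10 and Hoxc11 were thus the pair that parted the lines at all 3 levels.

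Levels of different genes were compared as CPM per kilobase of annotated exon. Hoxb9 was the most abundant HOX gene of both lines, at 142 CPM per kb in KO and 73.2 CPM per kb in WT. In KO it was followed by Hoxb7 (73.7 CPM per kb), Hoxb6 (43.9), Hoxd10 (32.3), Hoxd8 (23.4) and Hoxb8 (23.3). In WT it was followed by Hoxc10 (48.4 CPM per kb), Hoxb6 (25.3), Hoxb7 (23.4), Hoxa10 (22.0) and Hoxc6 (17.4). The upper end of the KO order was thus held by HoxB and HoxD genes, and that of WT by a mixture of HoxA, HoxB and HoxC genes. Among the genes named here, the libraries of neighbours in the order overlapped for Hoxd8 (SD 1.7) and Hoxb8 (SD 2.9) in KO. In WT they overlapped along the run from Hoxb6 (SD 1.6) over Hoxb7 (SD 1.5) and Hoxa10 (SD 2.5) to Hoxc6 (SD 4.1), all over 3 libraries. In KO, Hoxb6 (SD 9.8) and Hoxd10 (SD 2.8) differed by less than their summed SDs without overlap.

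**Figure D2:**
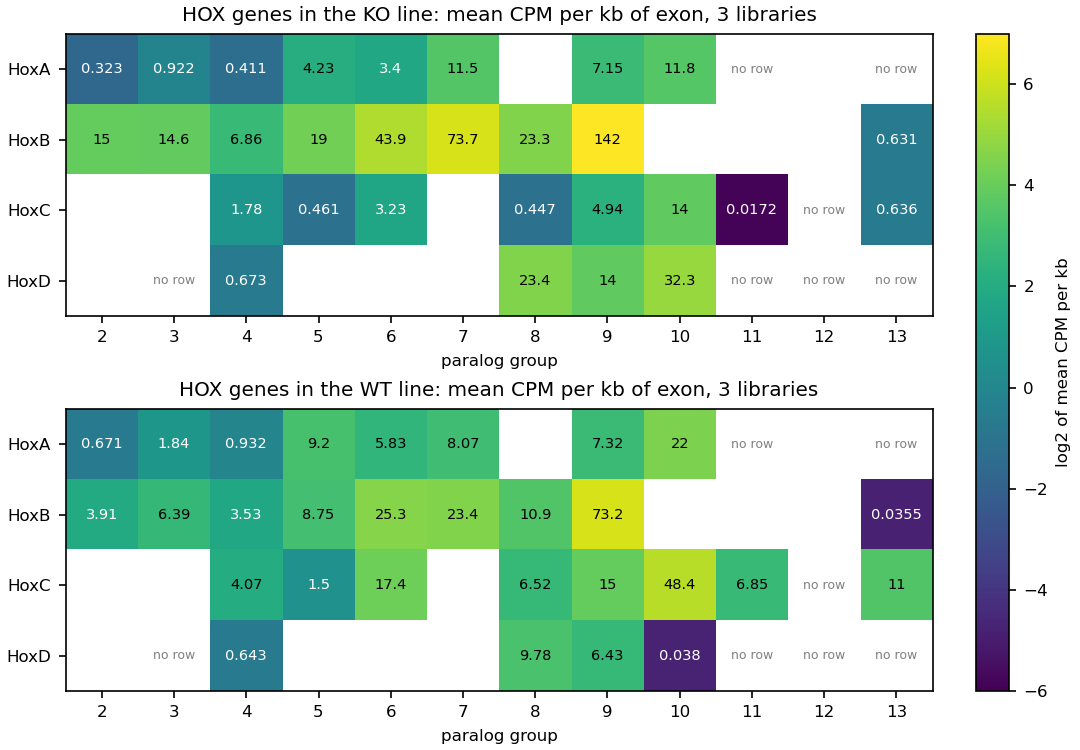
The HOX code of each line as a grid of clusters A to D (rows) by paralog group (columns, from group 2), with the mean level of 3 libraries in CPM per kb of exon printed in each cell and coloured on a log2 scale, for KO above and WT below. White cells without text are places with no mouse gene and cells marked "no row" were not analysed here, and the HoxC row is brighter in WT, where Hoxc11 stands at 6.85 against 0.0172 CPM per kb in KO.

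The HoxB cluster (GRCm38 chr11:96194316-96368256, from the first to the last annotated base of its genes) held the most abundant HOX genes of both lines, and all 9 listed genes were higher in KO, with log2 fold changes of 0.78 to 3.96 and a median of 1.11. Hoxb2, of the group that acts in the hindbrain, was at 48.5, 52.9 and 55.4 CPM in KO and at 12.3, 13.3 and 15.3 CPM in WT (log2 fold change 1.94, SE 0.11, adjusted p = 1.2e-06). Hoxb7 was at 111, 110 and 121 CPM in KO and at 38.6, 34 and 35.5 CPM in WT (1.66, SE 0.08, adjusted p = 5.5e-07). Hoxb9 was at 371, 365 and 358 CPM in KO and at 212, 190 and 164 CPM in WT (0.96, SE 0.10, adjusted p = 4.9e-05). In each of these genes the lowest KO library was above the highest WT library. Between them along the chromosome, Hoxb3 was at 58.9, 65.8 and 61.6 CPM in KO and 26.3, 28.7 and 26.5 CPM in WT (log2 fold change 1.19). Hoxb4, a gene known from blood stem cells, was at 14.8, 17.1 and 20.9 CPM against 8.06, 8.87 and 10.2 CPM (0.95). Hoxb5 was at 46.1, 53.4 and 59.6 CPM against 25.1, 25.4 and 22.6 CPM (1.11). These differences were near 2-fold and the libraries of the groups stayed apart. Hoxb6 was at 77.0, 73.4 and 108 CPM in KO and 52.5, 50.1 and 46.3 CPM in WT (0.78), with 1 KO library well above the other two. Hoxb8 was at 53.8, 61.1 and 69.1 CPM in KO and 30.3, 29.8 and 26.3 CPM in WT (1.09). Over Hoxb3 to Hoxb6 and Hoxb8 the adjusted p lay between 4.5e-06 and 0.0015.

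Hoxb13, the last gene of the cluster and a gene best known from the prostate and hindgut, was low in both lines. It was at 1.28, 1.54 and 1.35 CPM in KO and at 0.0234, 0.155 and 0.0565 CPM in WT, which is 157 reads against 9. The ratio of the levels was 18.0, with an exact 95% interval of 9.22 to 40.0 that covers counting error only (log2 fold change 3.96, SE 0.48, adjusted p = 1.1e-04). The WT mean of 0.0784 CPM fell to 0.0400 CPM without WT replicate 2, which held most of the 9 reads. The mouse cluster has no genes of groups 10 to 12, so Hoxb9 is its nearest neighbour in the cluster.

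The HoxC cluster (chr15:102921103-103036852) went the other way, and all 8 listed genes were lower in KO, with log2 fold changes of -7.85 to -1.17 and a median of -2.08. Hoxc11, whose paralog group is needed for metanephric kidney formation, was at 0.0492, 0.0285 and 0.0265 CPM in KO and at 14.9, 14 and 12.6 CPM in WT. That is 4 reads over the KO libraries against 1623 over the WT libraries, a WT to KO ratio of 394 with an exact 95% interval of 154 to 1448 (adjusted p = 5e-08). Hoxc11 was therefore near the limit of detection in KO. Hoxc13, known from hair and nail, was at 1.75, 1.6 and 1.35 CPM in KO and at 26.1, 28.1 and 26.7 CPM in WT (log2 fold change -4.09, SE 0.14, adjusted p = 8.5e-08). Hoxc8 was at 1.30, 1.14 and 1.35 CPM in KO and at 20.4, 21.4 and 13.6 CPM in WT (-3.81, SE 0.20, adjusted p = 8.3e-07). Both stayed on in KO by the threshold of 1 CPM but far under their WT level. Hoxc10, the second HOX gene of WT by level per kb, was at 30.3, 25.1 and 25 CPM in KO and at 120, 89.6 and 67.6 CPM in WT (-1.75, SE 0.19, adjusted p = 6.4e-05). Hoxc6 was at 8.15, 6.22 and 8.97 CPM in KO and 45.6, 49.3 and 30.6 CPM in WT (-2.41, adjusted p = 1.4e-05). Hoxc9 was at 13.3, 10.9 and 11.9 CPM in KO and 40.3, 38.4 and 30.7 CPM in WT (-1.59, adjusted p = 1.3e-05). WT replicate 3 was the lowest WT library for Hoxc6, Hoxc8, Hoxc9 and Hoxc10, and it still lay above every KO library. At the other end of the cluster, Hoxc5 was at 1.21, 1.37 and 1.70 CPM in KO and 4.08, 5.67 and 4.16 CPM in WT (-1.68, adjusted p = 1.7e-04). Hoxc4 was at 4.36, 5.22 and 4.11 CPM in KO and 7.52, 12 and 11.8 CPM in WT (-1.17, adjusted p = 0.0012). In the annotation the transcripts of Hoxc5 and Hoxc10 share 5.37% and 8.70% of their exon bases, so a part of their reads cannot be assigned to 1 of them.

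The HoxA cluster (chr6:52155590-52260880) was mixed, with 2 genes higher, 6 lower and 1 that did not pass among the 9 listed. Hoxa7 was higher in KO, at 36.3, 32.4 and 30.6 CPM against 24.3, 23.0 and 22.3 CPM in WT (log2 fold change 0.51, SE 0.10, adjusted p = 0.0017). Hoxa10, of the group that patterns the lumbar region and the uterus, was at 38.9, 36.3 and 40.9 CPM in KO and 78.2, 74.6 and 62.8 CPM in WT (-0.89, SE 0.10, adjusted p = 8.4e-05). Hoxa5, known from the lung, was at 8.96, 7.82 and 7.03 CPM in KO and 18.9, 16.8 and 16.1 CPM in WT (-1.12, SE 0.13, adjusted p = 1e-04). Hoxa3, known from the thymus and parathyroid, was at 6.67, 5.11 and 4.86 CPM in KO and 12.2, 11.6 and 9.44 CPM in WT (-1.0, adjusted p = 8.9e-04). All 3 stood at about the same distance between the lines, with no overlap of libraries. Hoxa6 was at 3.08, 3.08 and 2.76 CPM in KO and 5.93, 4.94 and 4.41 CPM in WT (-0.76, adjusted p = 0.0039). Hoxa4 was at 0.664, 0.799 and 0.504 CPM in KO and 1.31, 1.76 and 1.39 CPM in WT (-1.16, adjusted p = 0.0042). Hoxa2 was at 0.689, 0.713 and 0.318 CPM in KO and 1.03, 1.53 and 1.02 CPM in WT (-1.08, adjusted p = 0.026). The call for Hoxa2 was lost without KO replicate 3 (adjusted p = 0.055), without WT replicate 2 (adjusted p = 0.099) and after quantile normalization (adjusted p = 0.076), and its adjusted p ranged from 0.020 to 0.099 over all alternatives. Hoxa2 and Hoxa4 counted as on only in WT because their KO libraries lay under 1 CPM, between 0.318 and 0.799 CPM. Hoxa9, a gene known from leukaemia and the thoracolumbar axis, was at 40.6, 39.2 and 40.0 CPM in KO and 47.1, 40.9 and 34.6 CPM in WT, with overlapping groups (-0.02, SE 0.12, adjusted p = 0.87).

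The HoxD cluster (chr2:74668310-74765142) had 4 listed genes, of which 3 were higher in KO. Hoxd10, a gene of the limb and the lumbar spinal cord, was at 64.1, 58.0 and 54.2 CPM in KO and at 0.0468, 0.103 and 0.0565 CPM in WT. Its KO libraries held 6677 reads and its WT libraries 8, a ratio of 859 with an exact 95% interval of 436 to 1991 (log2 fold change 9.31, SE 0.25, adjusted p = 2.3e-08). No other member had a larger fitted log2 fold change. Its neighbour Hoxd9 was at 28.7, 30.7 and 30.2 CPM in KO and 15.4, 13.2 and 12.6 CPM in WT (1.12, SE 0.11, adjusted p = 2.9e-05). Hoxd8 was at 68.3, 59.1 and 64.9 CPM in KO and 28.3, 27.3 and 24.8 CPM in WT (1.26, SE 0.09, adjusted p = 5.8e-06). Hoxd9 and Hoxd8 were thus on in the 2 lines, at levels that differed by a little over 2-fold, while Hoxd10 was within a few reads of 0 in WT. Hoxd4 was at 1.75, 2.05 and 2.15 CPM in KO and 2.01, 1.84 and 1.84 CPM in WT, with overlapping groups (0.06, SE 0.19, adjusted p = 0.79). Of the exon bases of Hoxd4, 52.3% also belong to transcripts annotated to other genes on the same strand, so its level is uncertain.

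**Figure D3:**
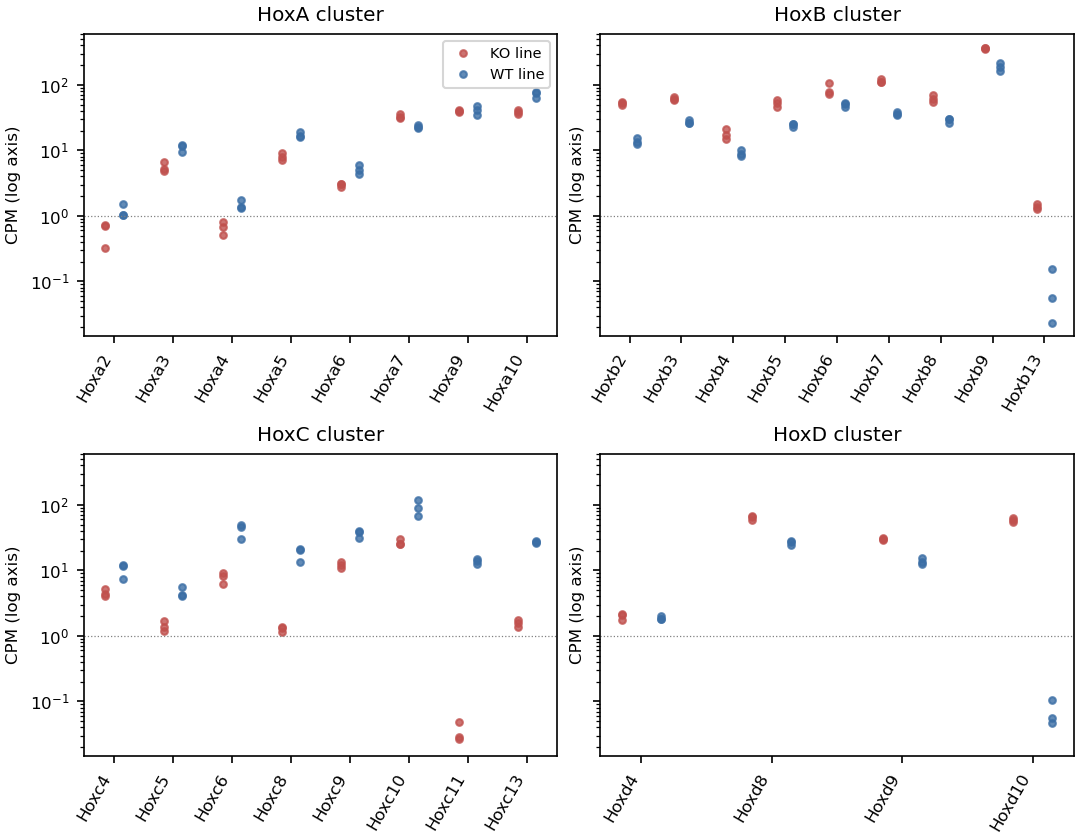
Level of 29 listed HOX genes in every library, in CPM on a log axis, with KO and WT libraries as points of different colour the genes ordered by cluster and paralog group, and a dotted line at 1 CPM. KO points lie above WT points for all HoxB genes and below them for all HoxC genes, and Hoxd10 and Hoxc11 have the widest gaps.

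The makeup of the HOX transcripts by cluster differed between the lines. Summed over the 30 genes, the level was 478 ± 14.9 CPM per kb in KO and 340 ± 39.1 CPM per kb in WT (mean ± SD, n = 3). HoxB genes made up 70.9% ± 1.9 of this sum in KO and 45.8% ± 1.8 in WT. HoxC genes made up 5.35% ± 0.49 in KO and 32.4% ± 2.3 in WT. HoxA genes made up 9.05% ± 0.57 against 16.8% ± 0.33, and HoxD genes 14.7% ± 0.91 against 4.98% ± 0.21. The WT line thus drew on HoxB and HoxC genes, and the KO line mainly on HoxB genes. Along the paralog groups the lines differed less. Groups 1 to 3 held 7.18% ± 0.38 of the sum in KO and 4.20% ± 0.58 in WT, and groups 4 to 8 held 45.2% ± 2.5 and 40.0% ± 1.8. Groups 9 to 13 held 47.6% ± 2.4 in KO and 55.8% ± 2.4 in WT, although their summed level was higher in KO, at 222 to 235 CPM per kb against 160 to 219 CPM per kb in WT. The share of groups 10 to 13, the most posterior ones, was 12.5% ± 1.1 in KO and 25.8% ± 1.9 in WT.

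Within several paralog groups, genes of different clusters differed in opposite directions. In group 10, Hoxd10 stood at 32.3 CPM per kb in KO and 0.0380 in WT, while Hoxc10 stood at 14 and 48.4 and Hoxa10 at 11.8 and 22.0. The sum of the group was 63.1, 56.1 and 55.4 CPM per kb in the KO libraries and 86.9, 69.8 and 54.6 in the WT libraries, so the summed levels overlapped although each gene differed. In group 6 the sums were 50.6 ± 10.1 CPM per kb in KO and 48.5 ± 6.2 in WT, with Hoxb6 higher and Hoxa6 and Hoxc6 lower in KO. In group 4 they were 9.72 ± 1.2 and 9.18 ± 1.4 CPM per kb. Group 7, whose listed genes are Hoxa7 and Hoxb7, was at 85.3 ± 3.4 CPM per kb in KO and 31.4 ± 1.8 in WT. Group 13 was at 1.27 ± 0.094 CPM per kb in KO, shared by Hoxb13 and Hoxc13, and at 11 ± 0.45 in WT, nearly all from Hoxc13. In group 11, of which Hoxc11 was the listed gene, the level was 0.0172 ± 0.0062 CPM per kb in KO and 6.85 ± 0.56 in WT.

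**Figure D4:**
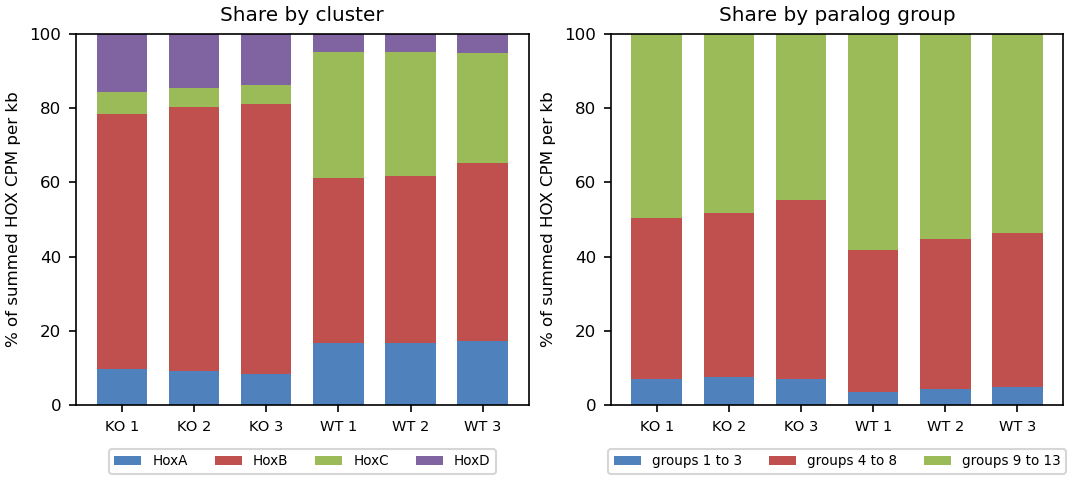
Share of the summed HOX level (CPM per kb of exon) held by clusters A to D and by ranges of paralog groups, in percent (stacked bars from 0 to 100, 1 bar for each library). HoxB holds 70.9% on average in KO and 45.8% in WT, and HoxC 5.35% and 32.4%.

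Genes around the HoxB and HoxC clusters tended to the side of their cluster, as did genes over the whole of chromosomes 11 and 15. This description was made after the HOX values had been seen. Within 5 Mb on either side of HoxB, 71 of 92 non-member genes with a mean of at least 4 log2 CPM were higher in KO, with a median log2 fold change of 0.46 and quartiles of 0.12 and 0.75. Around HoxC, 14 of 66 such genes were higher in KO, with a median of -0.50 and quartiles of -0.82 and -0.07. Around HoxA and HoxD the medians were 0.19 over 36 genes and 0.24 over 34 genes. The medians over whole chromosomes were 0.45 for chromosome 11 and -0.33 for chromosome 15, against 0.05 over all autosomes, and 0.22 and 0.21 for chromosomes 6 and 2. Of such genes, 78.6% on chromosome 11 and 26.6% on chromosome 15 were higher in KO, against 53.3% over all autosomes. The counts around HoxB and HoxC are therefore not particular to the surroundings of the clusters. The HoxB and HoxC medians of 1.11 and -2.08 were further from 0 than those of their surroundings. The HOX medians cover all listed genes of each cluster, without the cut on level used for the surroundings. Among these genes Hoxb13 and Hoxc11 had to differ to be listed. The medians are therefore not like for like. The part of these chromosome-wide differences in the HOX values was not tested.

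Reads of HOX genes can also come from overlapping transcripts. In the annotation 7 of the 30 HOX genes share exon bases with another gene on the same strand, and for Hoxd4 alone this was over 25% of the exon bases. On the opposite strand, 8 HOX genes are overlapped, among them Hoxb3 over 52.9% and Hoxb2 over 27.3% of their exon bases by Hoxb3os. The strand setting of the authors' counting is not given in the sources used here, so reads of these partners cannot be told apart with certainty. Hoxb3os itself was at 2.02 ± 0.26 CPM in KO and 1.81 ± 0.45 CPM in WT (log2 fold change 0.18, adjusted p = 0.52), far under Hoxb2 and Hoxb3. Hoxb5os, which runs against Hoxb5 and Hoxb6, was at 2.44, 3.05 and 2.31 CPM in KO and 0.141, 0.129 and 0.141 CPM in WT. That is 293 reads against 16, a ratio of 18.9 with an exact 95% interval of 11.4 to 33.4 (log2 fold change 4.0, SE 0.25, adjusted p = 2.3e-06). It was thus higher in KO together with the coding genes beside it, with a fitted log2 fold change near that of Hoxb13. Hoxd3os1 was at 4.31 ± 0.60 CPM in KO and 4.87 ± 0.40 CPM in WT (-0.18, adjusted p = 0.35), and Emx2os at 5.90 ± 0.64 and 4.63 ± 0.32 CPM (0.34, adjusted p = 0.069). Emx2os passed after quantile normalization (adjusted p = 0.0069) and without an intensity trend (adjusted p = 0.029), with a range of 0.0069 to 0.17 over alternatives.

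PBX, MEIS and PKNOX proteins are the DNA-binding partners of HOX proteins, and all 8 listed members were at 1 CPM or more in both lines. Of them 6 passed (75%, near the 68.1% of all genes), 5 as lower and 1 as higher in KO. Pbx3 was at 16.4, 15.4 and 15.3 CPM in KO and at 53.7, 49.8 and 49.5 CPM in WT (log2 fold change -1.70, SE 0.09, adjusted p = 6.2e-07). Pbx4 went the other way, at 7.85, 9.45 and 9.98 CPM in KO and 3.58, 3.85 and 3.68 CPM in WT (1.28, SE 0.15, adjusted p = 8.6e-05). Pbx2 was at 31.3, 30.8 and 31.0 CPM in KO and 52.9, 48.3 and 41.4 CPM in WT (-0.61, SE 0.10, adjusted p = 8.4e-04). The summed Pbx level was 27.9 ± 1.6 CPM per kb in KO and 33.7 ± 2.1 in WT. Of this sum Pbx3 held 9.21% ± 0.42 in KO and 24.8% ± 0.78 in WT, and Pbx4 held 14.8% ± 2.5 and 4.97% ± 0.40.

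Among the MEIS and PKNOX genes, Meis1, which acts with HOX proteins in many tissues and marks renal stroma, was at 6.64, 5.74 and 6.05 CPM in KO and at 18.3, 18.9 and 14.1 CPM in WT (log2 fold change -1.46, SE 0.15, adjusted p = 3.9e-05). Meis2 was at 27.0, 30.0 and 25.7 CPM in KO and 33.3, 34.6 and 34.7 CPM in WT (-0.31, SE 0.09, adjusted p = 0.014), a difference whose call was lost when WT replicate 2 was left out (adjusted p = 0.055, range over alternatives 0.011 to 0.055). Meis3 was at 17.2 ± 1.5 and 18.3 ± 1.6 CPM (-0.08, adjusted p = 0.54). Pknox1 was at 24.1, 27.3 and 20.2 CPM in KO and 39.4, 38.3 and 36.8 CPM in WT (-0.69, SE 0.12, adjusted p = 9.5e-04). The partners were thus listed in both lines with differences mostly under 2-fold, and Pbx3, Meis1 and Pbx4 were the exceptions. Over the 8 genes the sum was 39.7 ± 2.1 CPM per kb in KO and 49.4 ± 2.9 in WT.

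Outside the HOX clusters and their partners, several members were near 0 in 1 line. To show the sequence ahead of such genes, and of Hoxd10 from the HOX clusters, the stretch before the start of 5 genes is printed from the RefSeq promoter table (GRCm38.p6), as the 250 bases before the first RefSeq start, 5′ to 3′ on the strand of the gene, with each CpG in capitals. The genes were chosen after their values had been seen, from those with an entry in the table. In the GENCODE M21 annotation, used here for other positions, Msx2 begins further upstream, at base 53473074. The stretch printed for Msx2 therefore lies within the gene as annotated there. They are Hoxd10 at chr2:74691641-74691890 on the plus strand, Msx2 at chr13:53472781-53473030 on the minus strand, Msx1 at chr5:37824586-37824835 on the minus strand, Dlx2 at chr2:71546755-71547004 on the minus strand and Lhx2 at chr2:38339031-38339280 on the plus strand (1 of 2 starts listed for Lhx2).
Hoxd10: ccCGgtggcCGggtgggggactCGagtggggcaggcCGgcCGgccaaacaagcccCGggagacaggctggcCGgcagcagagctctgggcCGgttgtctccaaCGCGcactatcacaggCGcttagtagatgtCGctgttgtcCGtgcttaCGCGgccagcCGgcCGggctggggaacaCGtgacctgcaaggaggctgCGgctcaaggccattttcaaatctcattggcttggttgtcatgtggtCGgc
Msx2: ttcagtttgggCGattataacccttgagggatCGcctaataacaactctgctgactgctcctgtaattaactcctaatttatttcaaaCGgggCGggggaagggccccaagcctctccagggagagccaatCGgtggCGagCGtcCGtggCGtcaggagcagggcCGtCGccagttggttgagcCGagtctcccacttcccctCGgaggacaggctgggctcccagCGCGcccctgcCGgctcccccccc
Msx1: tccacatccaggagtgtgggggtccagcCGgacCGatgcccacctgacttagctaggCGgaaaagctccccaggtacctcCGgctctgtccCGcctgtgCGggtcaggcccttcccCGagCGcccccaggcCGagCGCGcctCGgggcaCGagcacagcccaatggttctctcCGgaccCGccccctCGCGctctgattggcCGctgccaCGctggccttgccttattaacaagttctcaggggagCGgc
Dlx2: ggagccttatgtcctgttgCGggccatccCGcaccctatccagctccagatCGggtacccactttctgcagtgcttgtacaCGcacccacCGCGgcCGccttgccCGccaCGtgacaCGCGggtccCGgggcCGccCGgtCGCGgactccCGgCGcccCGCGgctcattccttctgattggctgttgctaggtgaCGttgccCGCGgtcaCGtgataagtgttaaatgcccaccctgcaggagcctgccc
Lhx2: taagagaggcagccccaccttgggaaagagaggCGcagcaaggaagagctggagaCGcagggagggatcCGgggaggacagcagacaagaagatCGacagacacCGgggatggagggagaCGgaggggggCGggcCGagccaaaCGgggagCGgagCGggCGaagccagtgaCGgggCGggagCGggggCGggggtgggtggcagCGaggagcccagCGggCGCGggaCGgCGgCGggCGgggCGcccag
These stretches held 20, 16, 20, 24 and 25 CpGs in that order and 61.6% to 72.8% G and C, both for the genes near 0 in WT (Hoxd10 and Msx2) and for those near 0 in KO (Msx1, Dlx2 and Lhx2).

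Windows of 300 bases (250 before to 50 after the start) were taken from the promoter table. Windows of other lengths and those on chromosome 18, where Tshz1 lies, were left out here. This gave windows for 37 members, 46 windows in all. The median of these windows, 60.2% G and C and 18 CpGs, was close to that of the 12878 windows of genes in the expression table (61.0% and 20). It was above that of all 32851 windows kept (52.7% and 7). The letters of a joint HOX and PBX site, TGATTNAT on either strand, were found in 1 of the 46 windows (2.17%), in that of Hoxa2, against 1.41% of the windows of genes in the expression table and 3.22% of all. The homeodomain core TAATTA was in 2 windows (4.35%), those of Msx2 and Emx2, against 2.62% and 5.29%. In the Msx2 sequence above it begins at base 64. The MEIS and PKNOX site TGACAG was in 5 windows (10.9%), against 16.4% and 19.2%. The first 2 motifs were thus more frequent in the members' windows than in those of genes in the expression table and less frequent than in all windows, on 1 and 2 windows, and TGACAG was less frequent than in either. These matches describe letters only.

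Msx2, a target of BMP signalling, was at 12.4, 11.9 and 11.8 CPM in KO and at 0.0234, 0 and 0 CPM in WT. That is 1368 reads against 1 read, a ratio of 1408 with an exact 95% interval of 252 to 55672 (log2 fold change 8.55, adjusted p = 1.2e-07). Without WT replicate 1, which held that read, the WT level is 0. Its paralog Msx1 was at 0.369, 0.599 and 0.186 CPM in KO and 7.56, 6.31 and 7.01 CPM in WT (-4.22, SE 0.37, adjusted p = 1.7e-05). The lines thus expressed opposite members of the MSX pair. Dlx2 and Dlx1, neighbouring genes known from forebrain and jaw, were both low in KO. Dlx2 was at 0.369, 0.143 and 0.318 CPM in KO and 15.2, 12.5 and 13.1 CPM in WT (-5.58, SE 0.32, adjusted p = 1.4e-06). Dlx1 was at 0.566, 0.770 and 0.637 CPM in KO and 8.10, 7.84 and 7.15 CPM in WT (-3.51, SE 0.19, adjusted p = 9.6e-07). In both, the WT libraries lay within a narrow range far above the KO libraries.

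Of the LIM homeobox genes, Lhx2 was at 0.0984, 0.285 and 0.159 CPM in KO and 10.8, 8.59 and 10.4 CPM in WT, which is 20 reads against 1159 (WT to KO ratio 56.3, exact 95% interval 36.3 to 92.5, adjusted p = 1.5e-06). Lhx1, which is required for the kidney, was at 3.08, 5.02 and 1.70 CPM in KO and 3.98, 3.18 and 2.94 CPM in WT, with overlapping groups (log2 fold change -0.17, adjusted p = 0.70). Lhx6 was at 1.55 ± 0.34 and 2.02 ± 0.52 CPM (-0.37, adjusted p = 0.24). Lhx2 was thus the only LIM homeobox member listed whose groups stood apart.

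Satb1 and Zfhx4 were the large members that were near 0 in WT. Satb1, a chromatin organiser of T cells, was at 13.5, 18.4 and 23.7 CPM in KO and 0.187, 0.285 and 0.0565 CPM in WT. It had 2088 reads against 21, a ratio of 102 with an exact 95% interval of 66.8 to 166 (log2 fold change 6.68, SE 0.46, adjusted p = 4.1e-06). Zfhx4 was at 14, 18.9 and 15.6 CPM in KO and 0.117, 0.362 and 0.283 CPM in WT (5.96, SE 0.36, adjusted p = 1.7e-06). The other members with zinc fingers and homeodomains were at substantial levels in both lines. Zfhx2 was at 34.2, 33.2 and 28.5 CPM in KO and 20.7, 20.8 and 18.3 CPM in WT (0.68, adjusted p = 5.8e-04). Zfhx3 was at 93.6, 98.7 and 64.6 CPM in KO and 56.4, 63.2 and 59.2 CPM in WT (0.50, adjusted p = 0.018), and its call was lost at an adjusted p of 0.071 without KO replicate 1 and of 0.066 without KO replicate 2 (range over alternatives 3.6e-04 to 0.071).

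**Figure D5:**
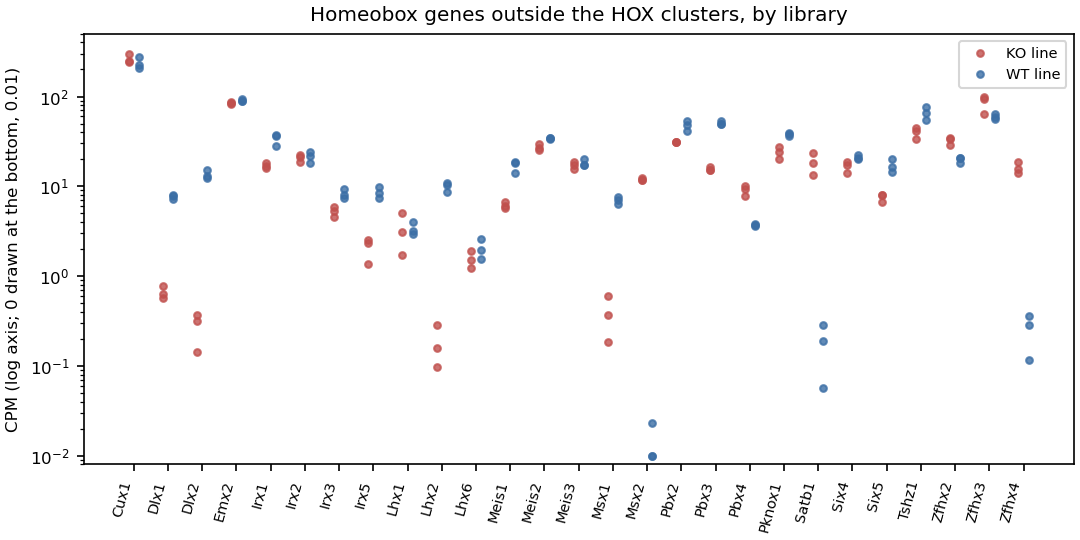
Level of 27 coding homeobox members outside the HOX clusters in every library, in CPM on a log axis, with KO and WT libraries as points of different colour and libraries with 0 reads drawn at 0.01. Msx2, Satb1 and Zfhx4 are near the floor in WT, and Dlx2, Lhx2 and Msx1 in KO, while Emx2 and Cux1 lie close together in the 2 lines.

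Six4 and Six5 of the sine oculis family, the IRX genes and Emx2 stood at 1 CPM or more on average in both lines. Emx2, with 28.1 CPM per kb in KO and 30.1 in WT the most abundant coding member outside the HOX genes, was at 84.3, 86.9 and 82.0 CPM in KO and 93.9, 89.0 and 88.1 CPM in WT, a difference of -0.10 on the log2 scale that did not pass (SE 0.07, adjusted p = 0.24). Six4 was at 16.8 ± 2.6 and 21 ± 1.2 CPM (-0.34, adjusted p = 0.047), and its call was lost without any of KO replicates 2 and 3 and WT replicates 1 to 3 (adjusted p between 0.061 and 0.15, range over alternatives 0.032 to 0.15) and in 3 other settings given with the limits below. Six5 was at 7.92, 6.62 and 8.09 CPM in KO and 19.9, 16.4 and 14.4 CPM in WT (-1.16, SE 0.15, adjusted p = 2.1e-04). Six5 thus kept its call with each library left out and Six4 did not.

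Irx1 was at 17.0, 18.1 and 16.0 CPM in KO and 28.1, 36.3 and 36.9 CPM in WT (log2 fold change -0.98, SE 0.13, adjusted p = 1.7e-04). Irx2, on the same chromosome, was at 21.1, 22.2 and 18.7 CPM in KO and 18.1, 21.6 and 24.3 CPM in WT, with overlapping groups (-0.04, adjusted p = 0.81). Irx5 was at 2.36, 2.54 and 1.35 CPM in KO and 9.77, 8.43 and 7.38 CPM in WT (-2.06, SE 0.25, adjusted p = 1.3e-04). Irx3, beside Irx5 on chromosome 8, was at 4.55, 5.82 and 5.36 CPM in KO and 9.34, 7.99 and 7.49 CPM in WT (-0.66, adjusted p = 0.0054). Of the 4 IRX genes 3 passed (75%, near the 68.1% of all genes), all as lower in KO. Tshz1 was at 41.6, 45.1 and 33.6 CPM in KO and 76.4, 65.7 and 55.3 CPM in WT (-0.71, SE 0.15, adjusted p = 0.0024). Cux1 was at 296, 251 and 242 CPM in KO and 274, 222 and 207 CPM in WT (0.17, adjusted p = 0.25), and it passed without WT replicate 1 (adjusted p = 0.045, range over alternatives 0.045 to 0.61).

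Genes that act with these factors were read from lists, each beside the same 68.1% of all genes. Pax3, Prox1, Phf19, Eya1 and Foxd1 were under 1 CPM on average in only 1 line and had to differ to be listed. Their calls are no independent evidence of a difference. Of 103 other homeobox genes 30 were listed and 28 tested, and 7 were higher, 12 lower and 9 did not pass (67.9% passed). Pax3, known from muscle and neural crest, was at 7.25 ± 0.85 CPM in KO and 0.00781 CPM in WT (819 reads against 1), and Prox1, known from lymphatic endothelium, at 6.89 ± 1.6 and 0.00862 CPM (787 reads against 1). Pou4f1, known from sensory neurons, was at 6.38 against 1.56 CPM (log2 fold change 2.01). Without the 1 WT library that held the read, replicate 1 for Pax3 and replicate 2 for Prox1, their WT level is 0. Zeb1, a repressor of epithelial genes, was at 1.71 CPM in KO and 102 CPM in WT (log2 fold change -5.88), Prrx2 at 1.62 and 57.2 CPM (-5.15), and Shox2 at 1.99 and 25.4 CPM (-3.66). Of 18 genes of the retinoic acid pathway, which sets HOX expression in the embryo, 11 were listed and 10 tested, with 1 higher and 7 lower. Cyp26b1, which degrades retinoic acid, was at 6.91 CPM in KO and 166 CPM in WT (-4.60). The synthesis enzymes Aldh1a1 and Aldh1a2 were at 63.4 ± 16 against 325 ± 137 CPM (-2.31) and 21.6 against 105 CPM (-2.24), and the retinol transporter Stra6 was higher in KO at 23.3 against 6.67 CPM (1.88). Enzymes of both synthesis and breakdown were thus lower in KO.

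The list of 32 chromatin regulators of HOX genes, which holds trithorax and polycomb group members, was listed in full. Of its members 4 were higher, 9 lower and 19 did not pass (40.6% passed), with a median absolute log2 fold change of 0.22, against 0.51 over all genes. The member furthest from 0, Phf19, an accessory protein of the polycomb complex PRC2, was low in both lines and lies outside the rule for named genes. It was at 0.0738, 0.0571 and 0.0265 CPM in KO and 1.78, 2.25 and 2.35 CPM in WT, 6 reads against 246, a WT to KO ratio of 39.8 with an exact 95% interval of 18.0 to 109.6 (log2 fold change -4.82). Dot1l was at 111 CPM in KO and 72.1 CPM in WT (0.63), Men1 at 44.9 and 82.1 CPM (-0.86), Phc3 at 114 and 207 CPM (-0.87) and Cbx7 at 23.4 and 39.5 CPM (-0.76). Wdr5 was at 74.2 and 58.1 CPM and Dpy30 at 28.2 and 21.8 CPM (both 0.36), and the call for Dpy30 (adjusted p = 0.033) was lost without KO replicate 1 or 3 or WT replicate 1 or 3 (adjusted p between 0.056 and 0.096, range over alternatives 0.015 to 0.096). Of 25 partners and kidney patterning genes 18 were listed and tested, with 2 higher and 12 lower. Of the 18, 4 were under 1 CPM on average only in KO, Eya1 and Foxd1 among them, and had to differ to be listed. Eya1, a coactivator that acts in the metanephric mesenchyme, was at 0.195 CPM in KO and 20.7 CPM in WT (-6.52), and Foxd1, a gene of renal stroma, at 0.0784 and 38.5 CPM (-8.54). Gdnf, the ligand that attracts the ureteric bud, was higher in KO at 13 against 3.41 CPM (1.96), Lmo1 also higher at 6.41 against 2.47 CPM (1.38), and Gata3 lower at 1.01 against 17.5 CPM (-4.12).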

How the data were processed

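Messenger RNA of 3 KO and 3 WT libraries was measured. Libraries were made with an Illumina stranded mRNA kit from 100 ng of RNA purified with RNeasy Plus Mini columns, per the labels' protocols. The submitters' processing notes name Trimmomatic 0.39, STAR 2.7.3a, featureCounts, Subread 1.6.4, edgeR and GRCm38, while for annotation, strand setting, filter and prior the entry is: not given in the sources used here. The authors deposited 1 table of log2 CPM, with a lowest value shared by all libraries. Subtracting it on the linear scale gave whole reads for 100% of values (tolerance 0.001), and CPM values in the text are these reads scaled as counts-per-million of the listed genes, without the prior. Folds from the fit are on the deposited log2 scale and understate changes of low genes, so reads and ratios with exact 95% (Clopper-Pearson) intervals are given there, which cover counting error only.

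The test was limma 3.58.1 (R 4.3.3; lmFit, eBayes with an intensity trend), KO minus WT, on 12616 genes above 0 log2 CPM in at least 3 of 6 libraries (187 were not tested), with Benjamini-Hochberg adjustment and a threshold of 0.05. It was tested on simulated data. Symbols, positions and exon lengths came from GENCODE M21, which matched all 65 members and need not be the authors' annotation. Promoter windows came from RefSeq. Protein sequences were not used here. All coding HOX genes on in either line, and other members past the threshold with at least 10 CPM in the higher line and a 2-fold change, were to be given by library (a few are not reported here); others named by library were added. From each list up to 3 higher and 3 lower genes of at least 5 CPM with groups that did not overlap were named. Members and lists were chosen with earlier results of these data known. Alternatives covered filter, prior, scaling, trend, voom, a replicate block and each library left out.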

Additional observations from a re-analysis of the deposited data

How the results depend on the processing

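With each library left out, 48 to 51 members passed instead of 52, and the other settings gave 47 (log2 CPM above 2 in 3 libraries, which tests fewer genes) to 52, or 36 with a 2-fold change required as well. Over all genes 7573 to 8323 passed with a library left out and 7565 to 8743 in the other settings, against 8590. Replicate numbers did not pair the libraries: same-numbered libraries deviated with correlations of 0.101, 0.081 and -0.095, and KO libraries 2 and 3 correlated best with another number. The replicate block gave 52 members and 8395 genes and changed the call of no member, while Dpy30 lost its call (adjusted p = 0.063). The count of chromatin regulators higher in KO ranged from 2 to 4 with a library left out, being 2 without KO replicate 1 and 2 without WT replicate 1. The call for Six4 was also lost with median centring (adjusted p = 0.064), quantile normalization (adjusted p = 0.11) and no intensity trend (adjusted p = 0.057), within its range of 0.032 to 0.15. The sign turned for members that did not pass: with a library left out, log2 fold changes ranged from -0.14 to 0.09 for Hoxa9, from -0.15 to 0.06 for Irx2 and from -0.54 to 0.23 for Lhx1, turning without WT replicate 1 (Hoxa9), KO replicate 3 (Irx2 and Lhx1) or WT replicate 3 (Irx2). Quantile normalization turned Hoxd3os1 (0.08), Irx2 (0.04) and Lhx1 (0.10), among others. The cause was not tested. Of the values for single members over all settings, 870 kept direction and call, 18 lost and 5 gained the call, and 8 turned. At 3 reads, worth 0.0703 to 0.0856 CPM, lower levels cannot be told from 0.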

Other observations

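The genes next to the HOX clusters, looked at after the HOX values were known, differed among themselves. Beyond the Hoxb2 end of HoxB, Skap1, an adaptor of T cells, lay 96.3 kb away and was at 3.46 CPM in KO and 0.154 CPM in WT (log2 fold change 4.34). At this WT level Skap1 had to be higher in KO to be listed. Snx11, a sorting nexin 399 kb away on the same side, was at 62.2 and 24.4 CPM (1.36). On the Hoxb13 side, Atp5g1 was at 54.2 and 29.4 CPM (0.88) and Ube2z at 266 and 169 CPM (0.65). Apart from Skap1, the genes named on both sides (Snx11, Atp5g1 and Ube2z) were thus higher in KO, as were 78.6% of non-member genes of at least 4 mean log2 CPM on chromosome 11. Around HoxC the flanks were mixed. Cbx5, which codes for heterochromatin protein HP1 alpha, was at 157 CPM in KO and 439 CPM in WT (-1.50), while Smug1, nearer to the cluster on that side, was at 36.9 and 27.0 CPM (0.45). On the Hoxc13 side Calcoco1 was at 159 and 181 CPM (-0.19, adjusted p = 0.068) and Atp5g2 at 11.7 and 18.3 CPM (-0.65). Around HoxA, where 6 of 9 listed genes were lower in KO, the named flanks were all higher in KO. Skap2 was at 133 and 65.0 CPM (1.04), Snx10 at 69.4 and 57.9 CPM (0.27), Hibadh at 74.8 and 45.3 CPM (0.72) and Tax1bp1 at 344 and 259 CPM (0.41). Further out from HoxD, Atp5g3 was at 199 and 164 CPM (0.27), while Hnrnpa3 was lower in KO at 194 and 245 CPM (-0.32). Beside HoxD, Mtx2, 60.7 kb from the cluster, was at 61.6 and 45.3 CPM (0.44) and Lnpk, 88.9 kb on the other side, at 27.5 and 20.7 CPM (0.41). Between these genes Hoxd10 differed by 9.31 and Hoxd4 by 0.06, so values within the HoxD cluster spread further than those of its nearest listed neighbours.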
